A study of Oryctolagus cuniculus with 39 samples.

Results

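The stromal vascular fraction (SVF) of the interscapular and of the subscapular brown fat depot was compared in newborn rabbits. An SVF is what remains of a fat depot after its mature fat cells are removed, and it holds fibroblast-like fat progenitors, vessel cells, blood cells and resident immune cells. The comparison used 6 of the 24 bulk RNA-seq libraries made from SVF, 3 of interscapular brown adipose tissue (iBAT) and 3 of subscapular brown adipose tissue (sBAT). All came from New Zealand White rabbits aged 1 day, with no treatment or altered gene named in the labels. The other 18 SVF libraries, from both depots at 3, 6 and 12 weeks with 3 libraries per depot and age, entered the estimate of the spread and a comparison across ages. The labels do not say whether the 3 libraries of a group came from separate animals, whether animals were pooled, or which sex they were. The p-values therefore measure the spread between these libraries, which may be in part technical.

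Of 20589 gene identifiers in the deposited table, 11960 were kept and tested, namely those with a value of at least 1 in at least 3 of the 6 day 1 libraries. Values are FPKM, a gene's fragments divided by the length of its transcript and by the total of mapped fragments. They were scaled between libraries by median ratios and are called scaled FPKM below. Differences are iBAT minus sBAT on the log2(scaled FPKM + 1) scale, so a positive value is higher in iBAT, and the change of genes with low values is understated.

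Brown fat burns fatty acids in its mitochondria, and the uncoupling protein UCP1 releases the energy as heat. Newborn rabbits rely on it for warmth. Fat cells of a depot arise from progenitors in its stroma, which express collagens and PDGFRA, and the stroma of different depots is known to keep transcription factors that mark its place of origin along the body axis.

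The libraries showed the cell types of an SVF in both depots. PDGFRA, a receptor on fat progenitors, ranged from 9.51 to 18.2 scaled FPKM in iBAT and from 6.11 to 10.8 in sBAT. The endothelial adhesion molecule PECAM1 was at 93.9 to 187 in iBAT and 99.9 to 206 in sBAT. The macrophage protein CD68 was at 24.1 to 26.0 in iBAT and 25.6 to 34.1 in sBAT. ACTA2, the actin of smooth muscle, was at 450 to 650 in iBAT and 359 to 806 in sBAT. None of these 4 passed the test between depots (limma adjusted p from 0.386 to 0.993), and their values overlapped. Products of mature fat cells were present as well. ADIPOQ, which encodes adiponectin, was at 297, 337 and 605 in iBAT and at 240, 235 and 272 in sBAT, a difference of 0.66 ± 0.42 (SE; adjusted p = 0.644).

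The deposited tables hold no read counts, so the absolute depth is unknown. Relative depth, estimated from ratios of low FPKM values, was 1.46, 1.53 and 0.891 in the 3 iBAT libraries and 0.831, 0.891 and 0.680 in the 3 sBAT libraries. Between 17258 and 17799 genes had a value above 0 in iBAT and between 15451 and 15883 in sBAT. ADORA1 and LOC100009266 (annotated as uricase) together held 2.40%, 2.02% and 8.71% of the summed FPKM in iBAT and 26.6%, 26.2% and 37.3% in sBAT. ADORA1, the adenosine A1 receptor gene, stood at 5273, 5340 and 20170 scaled FPKM in iBAT and at 82560, 71940 and 106300 in sBAT. LOC100009266 stood at 3937, 2691 and 15940 in iBAT and at 63650, 54920 and 107700 in sBAT. Whether the values under these 2 identifiers come from transcripts of the named genes cannot be told from FPKM. The sBAT values of both genes lay above all iBAT values, with differences of -3.37 ± 0.92 (SE) for ADORA1 and -3.71 ± 0.99 for LOC100009266, and neither passed the test (adjusted p = 0.131 and 0.126). The median difference of all genes tested was 0.20 as deposited and 0 after median ratio scaling. In a principal component analysis of the 6 libraries component 1 (36.3% of the variance) did not separate the depots. Both depots had the same order of replicate numbers on it. Replicate 2 was at 31 in iBAT and 23 in sBAT, replicate 1 at -4.6 and 3.3, and replicate 3 at -20.4 and -32.4. Whether same-numbered libraries share an animal or a batch is not given in the labels and was not tested. Component 2 (28.4%) placed the iBAT libraries at -32 to -3.1 and the sBAT libraries at 17.6 to 18.1.

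The comparison addresses which stromal transcripts differ between the depots shortly after birth. In a limma fit of all 24 SVF libraries, 24 of 11960 genes (0.201%) differed at a Benjamini-Hochberg adjusted p under 0.05. Of these, 14 (0.117%) were higher in iBAT and 10 (0.0836%) higher in sBAT. Without adjustment, 1239 of the 11960 genes had a p under 0.05, 641 higher in iBAT and 598 higher in sBAT. The unadjusted counts of the gene lists below are to be read beside these. The middle 90% of all differences ran from -0.53 to 0.51, and 16 of the 24 called genes differed by at least 1 in absolute value (7 higher in iBAT and 9 higher in sBAT). The values of the depots did not overlap in any of the 24, which was also so for 18.7% of all genes tested. For DMRT2, LOC108176236 and VSTM1 the filter fixed this, since they passed it only through the libraries of the higher depot.

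**Figure D1:**
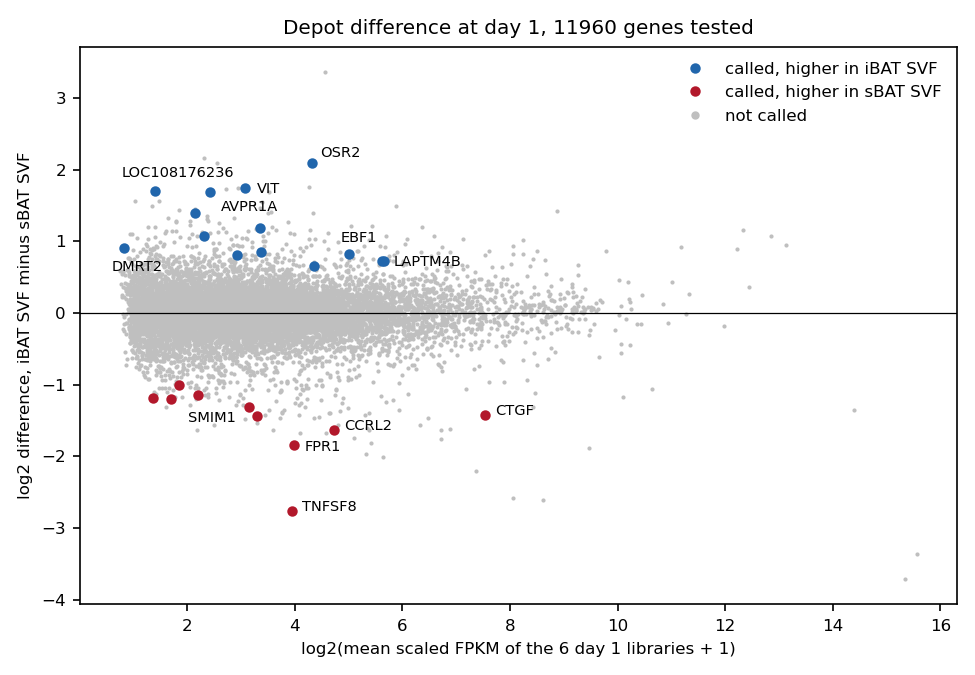
Difference between the depots at day 1 (iBAT SVF minus sBAT SVF, log2 scale, vertical axis) against the mean level of each of the 11960 genes tested (log2 of mean scaled FPKM + 1, horizontal axis). Blue and red points are the 24 genes called at an adjusted p under 0.05, of which 14 are higher in iBAT and 10 in sBAT; the 2 grey points at the lower right are ADORA1 (-3.37) and LOC100009266 (-3.71).

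The count rested on the spread estimated over all ages and on the single libraries. A fit of the 6 day 1 libraries alone called only OSR2 (0.00836% of genes, adjusted p = 0.0265), with 1447 genes at an unadjusted p under 0.05, and leaving out a day 1 library left 4 calls (without sBAT replicate 1), 5 (without sBAT replicate 2), 3 (without sBAT replicate 3), 19 (without iBAT replicate 1) and 1 (without iBAT replicate 2 or replicate 3). Without the sBAT libraries of 3 weeks, whose residual variance was 0.401 against 0.127 in each day 1 group, the fit called 136 genes (68 in each direction), including all 24. FPKM as deposited gave 67 calls, 61 of them higher in iBAT and 6 higher in sBAT.

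Of the 14 genes higher in iBAT, OSR2 had the largest difference. OSR2, an odd-skipped zinc finger transcription factor of embryonic mesenchyme, was measured at 27.7, 35.97 and 30.7 scaled FPKM in iBAT and at 7.79, 5.69 and 6.34 in sBAT. Every iBAT library was far above every sBAT library, and the difference of 2.09 ± 0.39 (SE) passed the test (adjusted p = 0.0364). OSR2 was called in 0 of the 6 fits that left out a day 1 library. VIT, which encodes the matrix protein vitrin, was at 7.26, 15.6 and 13.4 in iBAT and at 2.52, 3.08 and 2.68 in sBAT (1.74 ± 0.35, adjusted p = 0.0482). Its iBAT replicate 1 was the lowest of its depot and still above every sBAT library. COL21A1, a collagen associated with fibrils, was at 8.71, 17.6 and 13.8 in iBAT and at 5.46, 5.95 and 4.10 in sBAT (1.18 ± 0.22, adjusted p = 0.0364). The same iBAT library was again the lowest of its group.

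EBF1, a transcription factor of early B cells that also acts in fat cell differentiation, was at 37.8, 43.5 and 38.4 in iBAT and at 23.2, 21.6 and 21.7 in sBAT. The libraries of each depot lay close together, and the difference of 0.82 ± 0.16 passed the test (adjusted p = 0.0393). It passed in 0 of the 6 fits that left out a day 1 library. EBF1 stood in the fixed list of B cell genes, where 3 of the 14 members in the table were tested. The other two had differences of -0.07 and 0, and the part of B cell content in the EBF1 value was not tested. LAPTM4B, a protein of lysosomal membranes, was at 60.3, 64.3 and 60.3 in iBAT and at 41.3, 35.1 and 35.2 in sBAT (0.72 ± 0.12, adjusted p = 0.0288). Its spread within each depot was small against the distance between them. ARHGAP18 was at 11.9, 12.0 and 13.2 in iBAT and at 8.19, 6.37 and 5.03 in sBAT (0.85 ± 0.16, adjusted p = 0.0364). RBBP6, a ubiquitin ligase that binds the retinoblastoma protein, differed by 0.72 ± 0.15 (means of 60.7 ± 10.9 and 36.2 ± 1.26, SD, n = 3; limma adjusted p = 0.0499). ETNK1, an ethanolamine kinase at the start of phosphatidylethanolamine synthesis, differed by 0.65 ± 0.13 (means of 23.99 ± 2.52 and 14.9 ± 0.568, SD, n = 3; limma adjusted p = 0.047).

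The remaining 6 genes called higher in iBAT had means under 10 in both depots or no symbol other than a placeholder, and were named after their values were seen. AVPR1A, the vasopressin V1a receptor, was at 7.02, 7.57 and 6.99 in iBAT and at 1.598, 2.47 and 0.813 in sBAT. The iBAT libraries were nearly equal, and the difference of 1.69 ± 0.22 had the smallest adjusted p of all genes tested (0.00356). AVPR1A was called in 16 of the 17 alternative analyses, including all 6 that left out a day 1 library, and missed the threshold only in the fit of the 6 day 1 libraries alone (adjusted p = 0.126). APCDD1, an inhibitor of WNT signalling, differed by 1.40 ± 0.28 (adjusted p = 0.0448) and COCH, which encodes the matrix protein cochlin, by 1.08 ± 0.21 (adjusted p = 0.0393). DMRT2, a transcription factor of the embryonic dermomyotome, was at 1.07, 1.63 and 1.29 in iBAT and at 0.474, 0.203 and 0.0565 in sBAT (0.91 ± 0.18, adjusted p = 0.0393). CPEB2, an RNA-binding protein, differed by 0.81 ± 0.16 (adjusted p = 0.047). LOC108176236, annotated as carboxypeptidase E-like, was at 2.17, 5.49 and 1.63 in iBAT, while in sBAT it was listed at 0 in replicates 1 and 3 and was at 0.580 in replicate 2 (adjusted p = 0.0288). This gene and DMRT2 passed the filter only through their iBAT libraries, which fixed the separation of the depots.

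**Figure D2:**
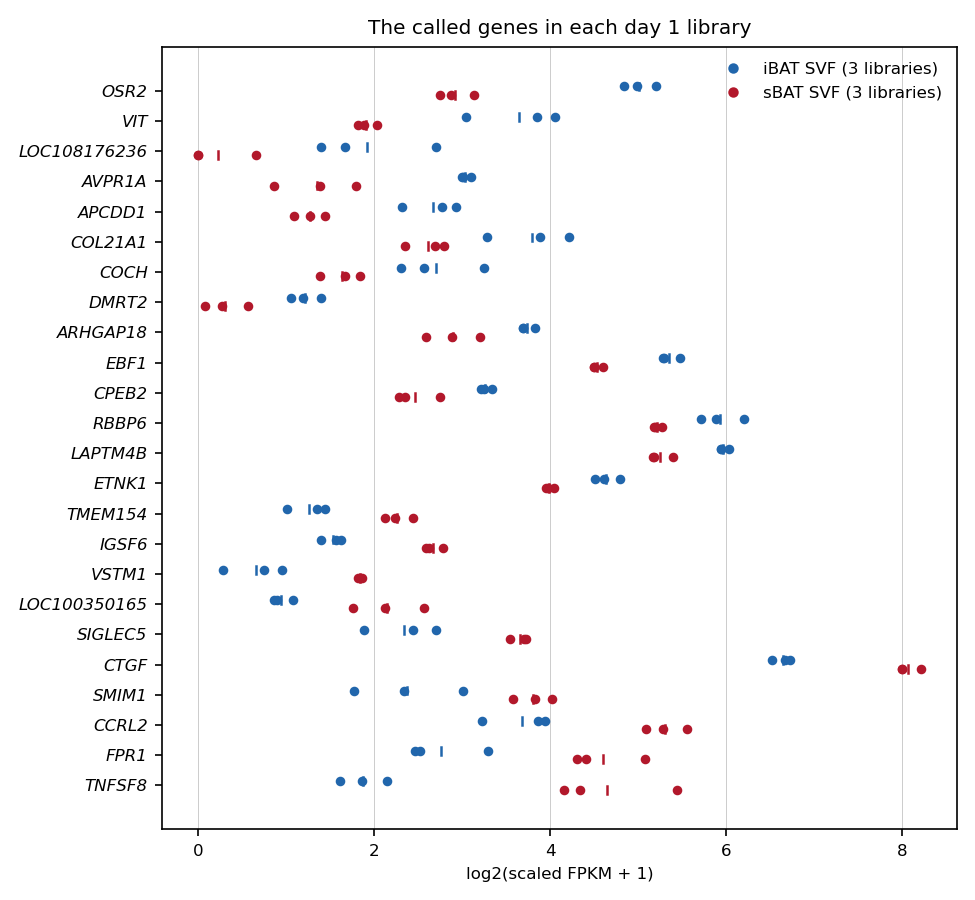
Level of each of the 24 called genes in the 6 day 1 libraries (log2 of scaled FPKM + 1, horizontal axis), ordered by the difference between depots. Points are libraries (blue iBAT SVF, red sBAT SVF, 3 each) and short vertical bars are group means. In no gene do the depots overlap, which the filter fixed for DMRT2, LOC108176236 and VSTM1. The widest distances are those of OSR2 at the top (2.09) and TNFSF8 at the bottom (-2.77).

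Of the 10 genes higher in sBAT, several are known from myeloid cells, the lineage of neutrophils, monocytes and macrophages. TNFSF8, which encodes the CD30 ligand, was at 3.43, 2.05 and 2.62 scaled FPKM in iBAT and at 42.4, 16.9 and 19.2 in sBAT. The lowest sBAT library was well above the highest of iBAT, although sBAT replicate 1 stood apart from the other two, and the difference of -2.77 ± 0.43 passed the test (adjusted p = 0.00873). It did not pass without sBAT replicate 1, iBAT replicate 2 or iBAT replicate 3. FPR1, the formyl peptide receptor by which neutrophils and monocytes sense bacterial products, was at 8.84, 4.72 and 4.498 in iBAT and at 32.9, 18.7 and 20.2 in sBAT (-1.84 ± 0.37, adjusted p = 0.047). Replicate 1 was the highest of its depot on both sides. CCRL2, an atypical receptor that binds chemerin, was at 14.4, 8.36 and 13.6 in iBAT and at 37.8, 33.1 and 46.1 in sBAT (-1.63 ± 0.33, adjusted p = 0.047). SIGLEC5, a sialic acid binding receptor of myeloid cells, was at 5.52, 2.70 and 4.42 in iBAT and at 10.6, 12.0 and 12.2 in sBAT (-1.31 ± 0.27, adjusted p = 0.0499), which is only just inside the threshold.

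CTGF, a matricellular protein induced by TGF-beta and by the YAP pathway, was the most abundant of the called genes. It was at 91.0, 105 and 101 in iBAT and at 255, 296 and 255 in sBAT. The groups were tight and far apart, and the difference was -1.43 ± 0.25 (adjusted p = 0.0288). It passed in 0 of the 6 fits that left out a day 1 library. SMIM1, a small membrane protein of red cells, was at 7.07, 2.41 and 4.07 in iBAT and at 15.3, 10.9 and 13.2 in sBAT (-1.44 ± 0.27, adjusted p = 0.0364). The summed level of the 16 erythroid genes in the table was 18400, 3280 and 25100 in iBAT and 53100, 17800 and 24200 in sBAT, and iBAT replicate 2 was the lowest library for both SMIM1 and this sum. Whether red cell content bears on SMIM1 was not tested.

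The other 4 genes called higher in sBAT were low and were named after their values were seen. VSTM1, an inhibitory receptor of myeloid cells, was at 0.927, 0.214 and 0.679 in iBAT and at 2.62, 2.52 and 2.56 in sBAT (-1.18 ± 0.18, adjusted p = 0.00873). It passed the filter only through its sBAT libraries, which fixed the separation of the depots. IGSF6, an immunoglobulin domain protein of myeloid cells, was at 2.07, 1.63 and 1.96 in iBAT and at 5.86, 5.17 and 5.01 in sBAT (-1.14 ± 0.22, adjusted p = 0.0398). TMEM154 differed by -1 ± 0.19 (adjusted p = 0.0364). LOC100350165, annotated as a cysteine-rich secretory protein, was at 1.10, 0.858 and 0.817 in iBAT and at 3.36, 4.91 and 2.37 in sBAT (-1.20 ± 0.18, adjusted p = 0.0076).

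Most granulocyte markers tested lay in the same direction as these receptors without passing the test. In bulk libraries, fewer cells of a type and less RNA per cell cannot be told apart. Of the 13 granulocyte genes in the table, 8 were tested and 0 were called by limma, with 4 at an unadjusted p under 0.05, all higher in sBAT. All 3 sBAT values lay above all 3 iBAT values in 6 of the 8, against 9.17% of all genes tested. The median difference was -1.20, and -1.39 to -1.05 when single libraries were left out, against 0 for all genes. S100A9, a calcium-binding protein that fills the cytoplasm of neutrophils and was the most abundant member, was at 70.6, 53.7 and 39.4 in iBAT and at 249, 206 and 87.2 in sBAT (adjusted p = 0.436). CSF3R, the receptor for the growth factor of granulocytes, was at 6.87, 4.68 and 4.98 in iBAT and at 15.9, 15.7 and 14.8 in sBAT (-1.35 ± 0.41, adjusted p = 0.179). MMP9, a protease of neutrophil granules, differed by -1.05 ± 0.38 (adjusted p = 0.269) and was called without the sBAT libraries of 3 weeks (adjusted p = 0.0166). The summed level of the 13 genes was 197, 150 and 115 in iBAT and 622, 533 and 243 in sBAT, with none of them at 0 in every library. The part of granulocyte content in the calls of TNFSF8, FPR1, CCRL2, SIGLEC5, VSTM1 and IGSF6 was not tested.

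Macrophage genes had a median of -0.37 over 15 tested, with 0 called by limma, 4 at an unadjusted p under 0.05 (all higher in sBAT) and 8 with all sBAT values above all iBAT values, against 9.17% of all genes. LYZ, the lysozyme gene, was at 170, 142 and 300 in iBAT and at 396, 500 and 559 in sBAT (-1.31 ± 0.34, adjusted p = 0.111). MARCO, a scavenger receptor, differed by -1.13 ± 0.35 (adjusted p = 0.188). CD68 differed by -0.17 ± 0.16, and by 0.05 in the FPKM as deposited, where the median of all genes was 0.20. The summed macrophage level was 538 to 722 in iBAT and 928 to 1100 in sBAT, with 1 of the 18 genes at 0 in all 6 libraries. IL1B, the inflammatory cytokine interleukin-1 beta, was at 219, 197 and 247 in iBAT and at 632, 414 and 415 in sBAT (-1.11 ± 0.28, adjusted p = 0.094, and 0.0264 without the sBAT libraries of 3 weeks). PLAUR, the urokinase receptor, differed by -0.87 ± 0.24 (adjusted p = 0.137). The wider list of interferon and inflammation genes had a median of -0.07, and 0.12 on that deposited scale. Mast cell genes had the opposite sign, with a median of 0.51 over 6 tested, 0 called by limma, 2 at an unadjusted p under 0.05 and 3 with all iBAT values above all sBAT values, against 9.52% of all genes.

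Genes of heat production and of mitochondrial metabolism mostly lay toward sBAT. UCP1 was at 19.6, 5.44 and 46.4 scaled FPKM in iBAT and at 68.3, 61.9 and 92.4 in sBAT. The depots did not overlap, but the iBAT libraries spread widely, and the difference of -2.01 ± 0.68 did not pass the test (adjusted p = 0.243). Of 14 thermogenic genes tested, 0 were called by limma and 7 had an unadjusted p under 0.05, all higher in sBAT. All sBAT values lay above all iBAT values in 5, against 9.17% of all genes. The median was -0.39, and -0.22 as deposited, where that of all genes was 0.20. FABP3, a fatty acid carrier of oxidative tissues and the most abundant member, was at 45.0, 73.6 and 43.8 in iBAT and at 82.2, 107 and 77.8 in sBAT (adjusted p = 0.473). CIDEA, a protein of lipid droplets, overlapped between the depots at 2.45 to 9.41 in iBAT and 8.91 to 11.7 in sBAT. COX7A1, the respiratory chain subunit of muscle and brown fat, was at 8.33 to 21.4 in iBAT and 22.2 to 32.6 in sBAT (-1.02 ± 0.44, adjusted p = 0.404).

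In the list of oxidative phosphorylation genes, 13 of 18 tested had all sBAT values above all iBAT values, against 9.17% of all genes, and 10 had an unadjusted p under 0.05, all higher in sBAT. None of the 18 was called by limma. The median was -0.32, -0.38 to -0.33 when single libraries were left out, and -0.10 as deposited, where the median of all genes was 0.20. UQCRFS1, the iron-sulphur subunit of respiratory complex III, was at 46.4, 44.1 and 46.2 in iBAT and at 78.9, 71.6 and 63.5 in sBAT (-0.63 ± 0.18, adjusted p = 0.152). COX5A, a subunit of cytochrome c oxidase, was at 83.2, 75.9 and 65.2 in iBAT and at 114, 107 and 120 in sBAT (-0.60 ± 0.21, adjusted p = 0.26). UQCRC1, a core subunit of complex III, differed by -0.48 ± 0.16 (adjusted p = 0.217). COX5A and UQCRC1 were called when the sBAT libraries of 3 weeks were left out (adjusted p = 0.0446 and 0.0183). COX4I1, another subunit of cytochrome c oxidase and the most abundant of the 18, was at 149, 145 and 140 in iBAT and at 151, 178 and 209 in sBAT.

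All 17 fatty acid oxidation genes tested had a difference below 0, from -0.73 to -0.26, with a median of -0.43 (-0.27 as deposited). In 12 of the 17 all sBAT values lay above all iBAT values, against 9.17% of all genes, 9 had an unadjusted p under 0.05, and 0 were called by limma. ACADL, which starts the oxidation of long-chain fatty acids, was at 61.3, 61.6 and 110 in iBAT and at 133, 122 and 120 in sBAT (-0.73 ± 0.36, adjusted p = 0.493). HADHA, a subunit of the mitochondrial trifunctional protein, differed by -0.54 ± 0.17 (adjusted p = 0.185). DGAT2, an enzyme of triglyceride synthesis, was at 9.47, 5.75 and 14.2 in iBAT and at 21.0, 15.7 and 24.98 in sBAT (-1.05 ± 0.35, adjusted p = 0.218). The general adipocyte list had a median of -0.13 over 15 tested, with 11 members below 0 and 4 above. All iBAT values lay above all sBAT values in 2 and the reverse in 2, against 9.52% and 9.17% of all genes. As deposited its median was 0.07, where that of all genes was 0.20. FABP4, its most abundant member, was at 4573, 1443 and 5801 in iBAT and at 4296, 2100 and 6128 in sBAT, so the depots overlapped. CEBPA, a transcription factor of fat cell differentiation, was at 8.49, 8.70 and 7.54 in iBAT and at 3.94, 4.97 and 5.07 in sBAT (0.71 ± 0.20, adjusted p = 0.131, and 0.0163 without the sBAT libraries of 3 weeks).

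Skeletal muscle RNA is rich in the same mitochondrial genes, and muscle transcripts were present in most of these libraries. Over 24 muscle genes the summed level was 1900, 2420 and 93.5 in iBAT and 2850, 3240 and 851 in sBAT. The muscle actin ACTA1 was at 731, 918 and 11.5 in iBAT and at 1025, 1196 and 347 in sBAT. MYL1, a myosin light chain of fast muscle, was at 352, 477 and 0.771 in iBAT and at 678, 713 and 140 in sBAT, and CKM, the muscle creatine kinase, at 107, 129 and 2.88 in iBAT and at 161, 172 and 57.5 in sBAT. Replicate 3 was the lowest of each depot for these 3 genes, and the depots overlapped. The median of 19 muscle genes tested was -0.92, and 0.16 without iBAT replicate 3. The part of muscle RNA in the mitochondrial values was not tested.

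Genes of hypoxia and glycolysis also lay toward sBAT, with a median of -0.39 over 20 tested (-0.17 as deposited). In 7 of them all sBAT values lay above all iBAT values, against 9.17% of all genes, and 7 had an unadjusted p under 0.05, with 0 called by limma. GAPDH was at 1196, 1096 and 785 in iBAT and at 1325, 1404 and 1383 in sBAT (-0.44 ± 0.21, adjusted p = 0.477). ENO1, the glycolytic enolase, was at 181, 166 and 182 in iBAT and at 250, 273 and 310 in sBAT. Its difference of -0.65 ± 0.14 missed the threshold (adjusted p = 0.0562) and passed without the sBAT libraries of 3 weeks (0.0343).

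**Figure D3:**
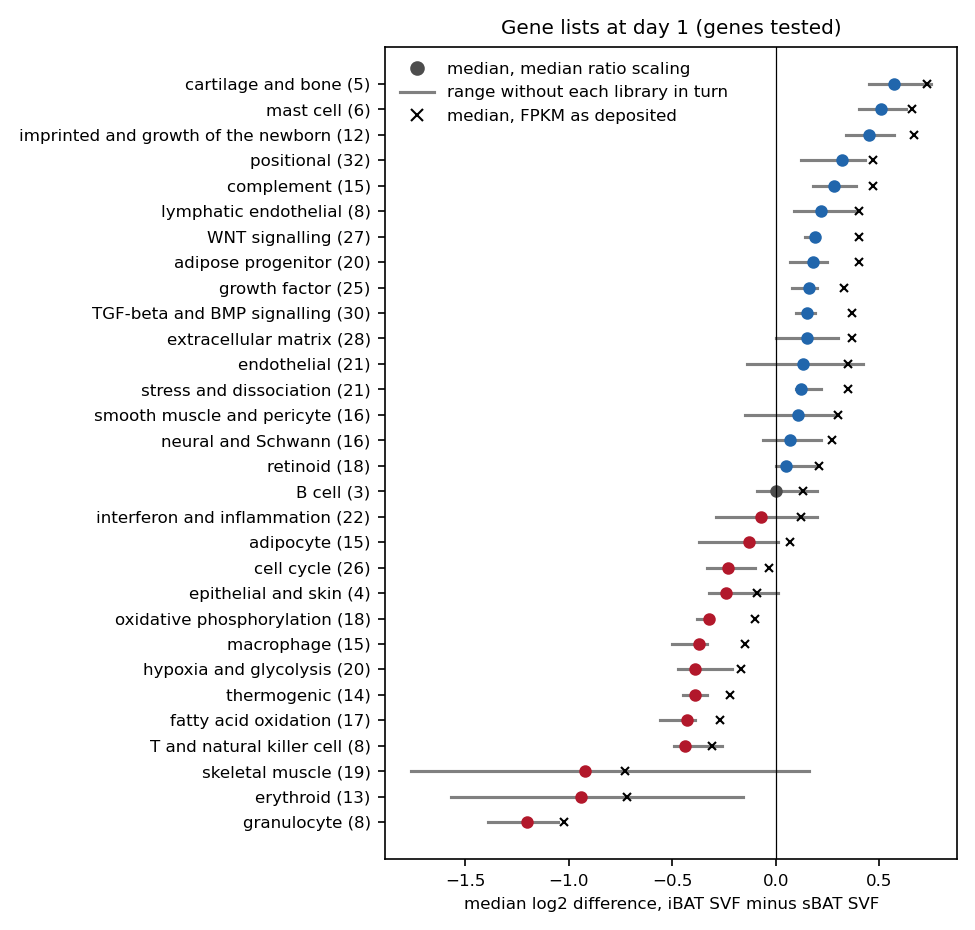
Median difference between the depots at day 1 (iBAT SVF minus sBAT SVF, log2 scale) for the 30 gene lists, with the number of genes tested in brackets. Points are the medians after median ratio scaling, grey lines the range when each day 1 library is left out in turn, and crosses the medians of FPKM as deposited, which lie to the right because the median of all genes is 0.20 there; the granulocyte list is lowest at -1.20 and the skeletal muscle and erythroid lists have the widest ranges.

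Transcription factors of body position made up the list with the most members in the table (70), of which 32 were tested and 0 called by limma. Their median was 0.32, 7 had an unadjusted p under 0.05 higher in iBAT and 2 higher in sBAT. All iBAT values lay above all sBAT values in 8 and the reverse in 4, against 9.52% and 9.17% of all genes. ZIC1, a zinc finger factor of the dorsal neural tube and somites that is known as a marker of brown fat, was at 1.95, 1.58 and 1.29 scaled FPKM in iBAT and at 0.540, 0.153 and 0 in sBAT. Its difference of 1.10 ± 0.23 missed the threshold (adjusted p = 0.055) and passed without the sBAT libraries of 3 weeks (0.0145). ZIC1 passed the filter only through its iBAT libraries, which fixed the separation of the depots. SHOX2, a limb homeobox factor, was at 2.90, 4.49 and 4.03 in iBAT and at 1.32, 1.47 and 0.712 in sBAT (1.15 ± 0.48, adjusted p = 0.382). HOXB6 differed by 0.97 ± 0.38 (adjusted p = 0.322) and TBX15, a T-box factor of the limb and trunk mesenchyme, by 0.53 ± 0.18 (adjusted p = 0.253). MEOX1 and IRX3 had the opposite sign. MEOX1, a homeobox factor of the somites, was at 17.0, 7.95 and 8.32 in iBAT and at 21.7, 21.6 and 22.4 in sBAT (-1 ± 0.42, adjusted p = 0.381), and IRX3, an Iroquois factor, differed by -0.82 ± 0.33 (adjusted p = 0.34). MEOX2, the most abundant member, overlapped at 22.3 to 42.3 in iBAT and 26.1 to 55.8 in sBAT.

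Matrix genes lay in both directions. Of 28 matrix genes tested, 17 had a difference above 0 and 11 below, and the median was 0.15, and 0 without sBAT replicate 3. By limma 0 were called, with 5 at an unadjusted p under 0.05 higher in iBAT and 1 higher in sBAT. The summed level was 42000, 60500 and 35500 in iBAT and 28900, 30400 and 20000 in sBAT. The fibrillar collagen COL1A1 was at 10180, 13080 and 6929 in iBAT and at 5259, 5230 and 3563 in sBAT (1.08 ± 0.38, adjusted p = 0.256). Its partner chain COL1A2 differed by 1.16 ± 0.36 (adjusted p = 0.186), COL3A1 by 0.95 ± 0.33 (adjusted p = 0.256) and the collagen-binding protein SPARC by 0.90 ± 0.31 (adjusted p = 0.252). Tenascin-C (TNC), a matrix protein of tissue remodelling, had the opposite sign at 21.4, 16.2 and 17.8 in iBAT and 38.7, 34.4 and 34.8 in sBAT (-0.93 ± 0.35, adjusted p = 0.297). TNC thus lay in the direction of CTGF, and away from COL1A1, COL1A2 and COL3A1. Neither TNC nor these collagens passed the test.

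The imprinted and newborn growth genes had a median of 0.45 over 12 tested, 6 of them with all iBAT values above all sBAT values and none with the reverse, against 9.52% and 9.17% of all genes. By limma 0 were called, and 4 had an unadjusted p under 0.05, all higher in iBAT. DLK1, an inhibitor of fat cell differentiation made by progenitors, was at 673, 841 and 552 in iBAT and at 267, 251 and 241 in sBAT. Every iBAT library was above every sBAT library, but the difference of 1.42 ± 0.49 did not pass (adjusted p = 0.252). PEG3, a paternally expressed zinc finger gene, was at 17.9, 35.8 and 27.1 in iBAT and at 13.7, 14.8 and 8.98 in sBAT (1.03 ± 0.22, adjusted p = 0.0537, and 0.0195 without the sBAT libraries of 3 weeks). Of the 12 members, 4 stand in another list too, among them DCN, which encodes decorin and is the most abundant of both this list and the progenitor list. DCN overlapped at 1799 to 3118 in iBAT and 1234 to 2121 in sBAT (0.43 ± 0.34, adjusted p = 0.735). The progenitor list had a median of 0.18 over 20 tested, with 3 genes whose iBAT values all lay above the sBAT values, against 9.52% of all genes. PI16, a marker of stromal cells that give rise to other fibroblasts, overlapped at 204 to 496 in iBAT and 349 to 673 in sBAT.

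Of 15 complement genes tested, all iBAT values lay above all sBAT values in 5 and the reverse in 4, against 9.52% and 9.17% of all genes, and the median was 0.28. By limma 0 were called, with 4 at an unadjusted p under 0.05 higher in iBAT and 2 higher in sBAT. SERPING1, the C1 inhibitor, was at 241, 271 and 245 in iBAT and at 154, 157 and 107 in sBAT (0.87 ± 0.26, adjusted p = 0.179), and C1R, a protease of the C1 complex, at 119, 121 and 149 in iBAT and at 73.4, 65.1 and 47.1 in sBAT (1.07 ± 0.37, adjusted p = 0.255). C4BPA, which binds and inhibits C4, had the opposite sign at 4.67, 11.5 and 9.16 in iBAT and 24.4, 28.8 and 17.5 in sBAT (-1.43 ± 0.40, adjusted p = 0.146).

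WNT pathway genes had a median of 0.19 over 27 tested, 6 with all iBAT values above all sBAT values and 2 with the reverse, against 9.52% and 9.17% of all genes. By limma 0 were called, with 3 at an unadjusted p under 0.05 higher in iBAT and 1 higher in sBAT. AXIN2, a feedback inhibitor and common readout of the pathway, was at 1.995, 2.90 and 2.16 in iBAT and at 1.01, 1.07 and 0.723 in sBAT (0.79 ± 0.26, adjusted p = 0.219). TCF7, a transcription factor of the pathway that is also abundant in T cells, had the opposite sign at 1.75, 1.27 and 2.08 in iBAT and 3.79, 5.71 and 3.59 in sBAT (-0.98 ± 0.37, adjusted p = 0.305). SFRP4, a secreted inhibitor and the most abundant member, overlapped at 151 to 359 in iBAT and 110 to 209 in sBAT.

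Over all 30 lists, which held 493 distinct tested genes, limma called 1 (EBF1). An unadjusted p under 0.05 was found for 108 of the 493, 50 higher in iBAT and 58 higher in sBAT. Among all 11960 genes these counts were 1239, 641 and 598. The endothelial median was 0.13, with 0 of 21 genes at an unadjusted p under 0.05. No gene of the 21 was separated between the depots in either direction, against 18.7% of all genes. The medians were 0.22 for lymphatic endothelial, 0.11 for smooth muscle and pericyte, 0.07 for neural and Schwann, 0.05 for retinoid and 0 for B cell genes. They were 0.57 for cartilage and bone (5 tested), 0.16 for growth factor, 0.15 for TGF-beta and BMP signalling and 0.12 for stress and dissociation genes. Those of cell cycle (-0.23, and -0.03 as deposited), epithelial and skin (-0.24, 4 tested) and T and natural killer cell genes (-0.44, 8 tested) lay toward sBAT. The erythroid median was -0.94, and -1.57 to -0.16 when single libraries were left out. HBB2, a beta globin and its most abundant member, was at 17330, 2763 and 21910 in iBAT and at 48930, 15990 and 22330 in sBAT, so the depots overlapped.

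In the fit of all 24 SVF libraries, more genes were called between the depots at each later age than at day 1. The same fit called 905 genes at 3 weeks (7.57%), with 450 (3.76%) higher in iBAT and 455 (3.8%) higher in sBAT. It called 108 at 6 weeks (0.903%), with 63 (0.527%) and 45 (0.376%) in these directions, and 1166 at 12 weeks (9.75%), with 683 (5.71%) and 483 (4.04%). Across the alternative analyses the day 1 count ran from 1 to 136, while the later counts are given for this fit only. The sBAT libraries of 3 weeks stood apart from the others, with 80.4%, 64.2% and 63.9% of their FPKM in ADORA1 and LOC100009266 and 12416 to 13888 genes above 0, against 15810 to 17143 in the iBAT libraries of that age. The part of this in the 3 weeks calls was not tested. Of the 24, 11 were called again in the same direction at 3 weeks, 3 at 6 weeks and 8 at 12 weeks. These are 45.8%, 12.5% and 33.3% of the day 1 calls, and 1.22%, 2.78% and 0.686% of the calls at those ages. SMIM1 was called in the opposite direction at 3 weeks and RBBP6 at 12 weeks. Across all 11960 genes, which are not independent replicates, the day 1 difference had a Pearson's r of 0.33 with that at 3 weeks, 0.22 with that at 6 weeks and 0.21 with that at 12 weeks. Spearman's rank correlations were 0.26, 0.16 and 0.08. The differences had the same sign as at day 1 in 58.2%, 54.9% and 50.4% of all genes.

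**Figure D4:**
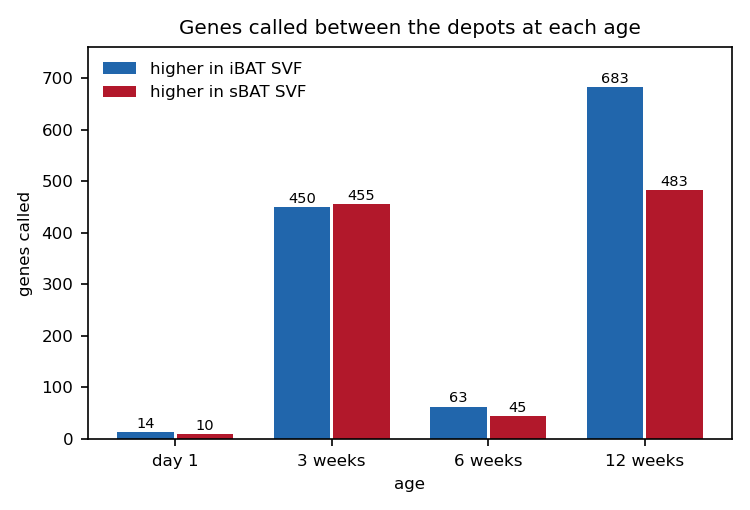
Number of genes called between iBAT SVF and sBAT SVF at each age (adjusted p under 0.05, vertical axis from 0) among the 11960 genes kept at day 1, split by direction. Day 1 has 14 genes higher in iBAT and 10 higher in sBAT, against 683 and 483 at 12 weeks; the 3 weeks sBAT libraries have the largest spread of all groups.

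DMRT2 and LAPTM4B were called at every age in the same direction. DMRT2 had means of 1.33 ± 0.282 in iBAT and 0.245 ± 0.212 in sBAT at day 1 (SD, n = 3), 2.54 and 0.0635 at 3 weeks, 2.59 and 0.126 at 6 weeks, and 3.61 and 1.26 at 12 weeks, and the depots did not overlap at any age. The filter fixed this at day 1. At 3 weeks DMRT2 was listed at 0 in sBAT replicates 1 and 2. LAPTM4B had means of 61.6 and 37.2 at day 1, 117 and 80.8 at 3 weeks, 110 and 74.1 at 6 weeks, and 130 and 74.2 at 12 weeks, again without overlap. OSR2 had means of 31.4 in iBAT and 6.61 in sBAT at day 1, 78.1 and 29.4 at 3 weeks, 90.3 and 33.4 at 6 weeks, and 150 and 29.8 at 12 weeks. The depots did not overlap at any age, and OSR2 was called at 3 and 12 weeks (adjusted p = 0.0272 and 0.00156) but not at 6 weeks (0.0894).

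Other day 1 differences did not pass the test at every later age. EBF1 overlapped between the depots at 3, 6 and 12 weeks, with differences of -0.04, -0.01 and 0.24. Its day 1 difference was not shown to be unlike these (adjusted p of the interaction of depot and age 0.13, 0.201 and 0.173). CTGF had means of 99.0 in iBAT and 269 in sBAT at day 1, 15.4 and 12.7 at 3 weeks, 13.1 and 12.6 at 6 weeks, and 18.3 and 33.4 at 12 weeks, when it was called again (adjusted p = 0.0347). Its day 1 difference too was not shown to be unlike those of the later ages (adjusted p of the interaction 0.0532, 0.168 and 0.425). TNFSF8 stayed higher on average in sBAT, with differences of -1.20, -1.14 and -1.12 that did not pass the test (adjusted p = 0.0919, 0.217 and 0.103).

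The interaction of depot and age, which tests whether the day 1 difference itself was unlike that of another age, called 24 genes against 3 weeks (0.201%), 3 against 6 weeks (0.0251%) and 179 against 12 weeks (1.5%). These counts rested on single libraries. When each library of the ages compared was left out in turn, they ranged from 5 to 318, from 1 to 6 and from 12 to 462. The 3 genes against 6 weeks were PLAUR, FAM13C and LOC100346046, all of which were named after their values were seen. Of the 24 genes called at day 1, 6 were called in the interaction with 12 weeks. FPR1 had means of 7.27 in iBAT and 3.81 in sBAT at 12 weeks, against 6.02 and 23.9 at day 1 (interaction -2.63, adjusted p = 0.0217). SIGLEC5 had 9.32 and 7.05, against 4.21 and 11.6 at day 1 (-1.62, adjusted p = 0.0413). AVPR1A had 0.856 and 0.601, against 7.19 and 1.63 at day 1 (1.48, adjusted p = 0.0279). FPR1 and SIGLEC5 overlapped between the depots at 12 weeks, as did AVPR1A.

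**Figure D5:**
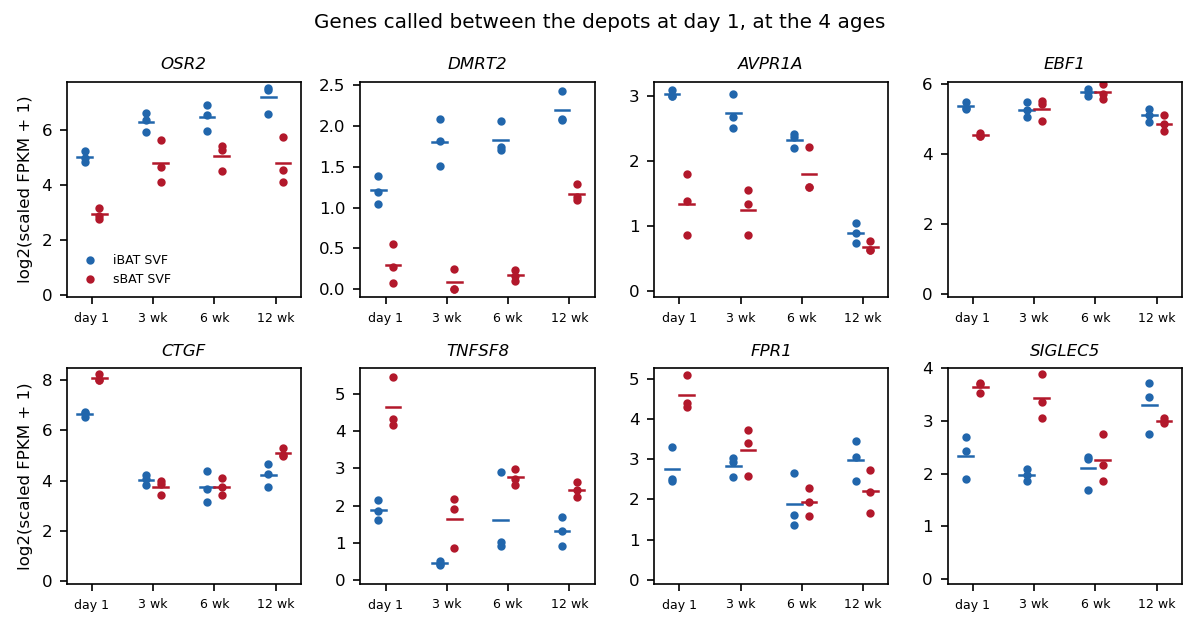
Levels of 8 genes called at day 1 (log2 of scaled FPKM + 1, vertical axes differ between panels) in the SVF of iBAT (blue) and sBAT (red) at day 1 and at 3, 6 and 12 weeks; points are libraries (3 per group) and bars are group means. OSR2 and DMRT2 stay separated at all 4 ages, which the filter fixed for DMRT2 at day 1. EBF1 and FPR1 overlap at every later age.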

How the data were processed

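Bulk RNA-seq values of 24 SVF libraries were used, which the authors deposited as FPKM per the file headers; total iBAT and single-cell samples were not used here. The submitters' processing notes name HISAT2 2.0.4, Bowtie2 2.2.5, DESeq2 and the OryCun2.0 build without roles; the step that gave the FPKM is not given in the sources used here. A RefSeq gene table (assembly mOryCun1.1, names only) matched 17693 identifiers (85.9%) and replaced 595 placeholder symbols; the 22 identifiers sharing a symbol were kept apart. No sequences or coordinates were used.

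FPKM was divided by median ratio factors (11056 genes above 0 in all 24 libraries), filtered at 1 in at least 3 day 1 libraries and transformed to log2(value + 1). Limma 3.58.1 (R 4.3.3) fitted 8 group means with a variance trend, 16 residual degrees of freedom and two-sided tests adjusted by Benjamini-Hochberg over all 11960 genes. Interactions came from the same fit. The code was tested on simulated data. Relative depth came from the low FPKM values; all 15 library pairs lay within 0.1 (log2) of the joint solution, and FPKM without counts gives no interval for a single value.

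Named genes were the up to 12 largest differences in each direction among called, non-overlapping genes with a symbol and a mean of at least 10 in a depot (8 and 6 qualified), the most abundant members of the lists described, 6 cell markers, and the 2 genes with the largest FPKM share. All other named genes, 10 called genes included, were chosen after their values were seen. The comparison and the 30 gene lists were chosen with earlier results of these data known. Lists were described, not tested. Alternatives were a pseudocount of 0.1, no filter, a filter at 5, FPKM as deposited, upper quartile scaling (75%), no trend, sample weights, a minimum log2 difference of 1, a replicate block, fewer libraries, and each library left out.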

Additional observations from a re-analysis of the deposited data

Results flagged for a closer look

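The depot difference at day 1 was unlike that at a later age, by the limma interaction of depot and age (adjusted over all genes tested), in the following named genes. Values are the day 1 difference minus the later one on the log2 scale, and none was weighed for a cause.

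Against 3 weeks, SMIM1 differed by -2.74 (adjusted p = 0.00204). It was higher in sBAT at day 1, and at 3 weeks it was at 1.30, 1.48 and 1.64 in iBAT and listed at 0 in the 3 sBAT libraries. VSTM1 passed the filter only through its sBAT libraries of day 1, which fixed the direction of its day 1 difference. The filter thus bears on its interaction too. VSTM1 differed by -1.42 (adjusted p = 0.0272) and LOC100350165 by -1.25 (adjusted p = 0.0419), both with means under 0.2 in iBAT and listed at 0 in sBAT at 3 weeks. In those sBAT libraries ADORA1 and LOC100009266 held 80.4%, 64.2% and 63.9% of the FPKM, and 12416 to 13888 genes were above 0. The part of this in the values of 0 was not tested.

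Against 6 weeks, PLAUR differed by -2.51 (adjusted p = 0.00621), with means of 25.1 in iBAT and 46.0 in sBAT at day 1 and 40.1 and 12.2 at 6 weeks. Against 12 weeks it differed by -2.05 (adjusted p = 0.0105), with means of 30.6 and 12.98 at 12 weeks.

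Against 12 weeks, 5 other genes called at day 1 besides AVPR1A (1.48) differed, namely RBBP6 (1.24), ETNK1 (1.02), FPR1 (-2.63), SIGLEC5 (-1.62) and LOC100350165 (-1.03). Of the genes not called at day 1, CEBPA differed by 2.12 (adjusted p = 0.00217), with means of 8.24 in iBAT and 4.66 in sBAT at day 1 and 6.22 and 18.2 at 12 weeks. PEG3 differed by 1.73, from 26.9 and 12.5 at day 1 to 2.89 and 5.36. PI16 differed by -2.14, from 379 and 540 at day 1 to 2663 and 866. C4BPA differed by -2.36, IL1B by -1.90 and ENO1 by -0.94, each toward sBAT at day 1 and toward iBAT on average at 12 weeks. Apart from CEBPA, the adjusted p of these 12 weeks values lay between 0.0105 and 0.0435.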

How the results depend on the processing

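All 24 genes called at day 1 kept their direction in every alternative in which they were tested. The count of calls was 14 with a pseudocount of 0.1, 100 without a filter, 67 with FPKM as deposited, 42 without a trend, 77 with sample weights, 136 without the sBAT 3 weeks libraries and 1 with only the 6 day 1 libraries, and 1 to 19 when each day 1 library was left out; a filter at 5 gave 24, upper quartile scaling 25 and a minimum log2 difference of 1 gave 16. Of the 24, 24 were also called without a filter, 18 as deposited, 12 with the pseudocount of 0.1 and 1 in the day 1 libraries alone. The cause of these changes was not tested.

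The interaction with 12 weeks (179) gave 2303 as deposited, 1837 with sample weights, 721 without the sBAT 3 weeks libraries and 12 to 462 with each library left out (12 without sBAT 12 weeks replicate 2, 462 without sBAT 12 weeks replicate 3). That with 6 weeks (3) gave 15 without a filter, 1 with a filter at 5, 95 as deposited, 76 with weights, 32 without the sBAT 3 weeks libraries and 1 to 6 with each library left out. That with 3 weeks (24) gave 46 with a pseudocount of 0.1, 68 without a filter, 7 with a filter at 5, 5832 as deposited, 4 with weights and 5 to 318 with each library left out (194 and 318 without sBAT 3 weeks replicates 2 and 3).

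The replicate numbers were not taken as pairs, since the labels do not say whether same-numbered libraries share an animal. The deviations of same-numbered day 1 libraries of the 2 depots correlated at 0.04, 0.62 and 0.34. Those of differently numbered libraries of the 2 depots correlated at -0.54 to 0.22. Whether the numbers mark a shared animal or batch was not tested. A replicate block gave 3 calls at day 1 (AVPR1A, TNFSF8 and SMIM1), and 49, 6 and 5 for the interactions with 12, 6 and 3 weeks; in the 6 day 1 libraries alone it gave 24 calls, 8 of them among the 24.

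Some uncalled values changed sign. As deposited, where the median of all genes was 0.20, CD68 was at 0.05, FABP4 at 0.05 and MEOX2 at 0.10, all still below that median, and with sample weights MEOX2 was at 0. When single day 1 libraries were left out, PECAM1 ran from -0.14 to 0.38, ACTA2 from -0.26 to 0.32, MEOX2 from -0.36 to 0.18, FABP4 from -0.61 to 0.43, ACTA1 from -2.98 to 0.12, MYL1 from -4.03 to 0.01 and CKM from -2.53 to 0. Depth limits genes of low level: without counts, no detection limit can be set for those listed at 0.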
